A study of Rattus norvegicus with 8 samples.

Results

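The proteasome genes of rat liver were taken as every gene whose platform symbol begins with Psma to Psmg followed by a number, and each was read from 1 probe set, the brightest on average where a gene had several. This gave 46 of the 14217 named genes on the array. Of the 46, 44 encode subunits, assembly chaperones or regulators of the proteasome, and 2, Psmc3ip and Psme3ip1, are caught by the pattern although they encode proteins that bind a subunit or an activator and are themselves no subunit. The 44 were 7 alpha subunits, 6 constitutive beta subunits, 3 immunoproteasome beta subunits, 6 ATPases, 2 further subunits of the base, 8 subunits of the lid, the ubiquitin receptor Psmd4, 7 assembly chaperones, and 4 activators and inhibitors. A further 6 probe sets carried several symbols, among them the ones annotated to Psmb6 and Psme3, and gave no value.

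The livers came from male Sprague-Dawley rats, an outbred strain, bought at 3 weeks and labelled as 7 weeks of age. In the iron-deficient group (4 arrays) ferric citrate had been left out of the diet, and in the control group (4 arrays) the same purified diet with iron was given. Both groups were put on a daytime feeding schedule before sampling on day 17, after 1.5 h of feeding, when hemoglobin in the iron-deficient group stood at 42% of the control level. The diets were given to 7 iron-deficient and 6 control rats, and the labels, which call the arrays biological replicates, do not say which rats gave them.

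The proteasome is the main protease of the cytosol and nucleus and degrades proteins that carry chains of ubiquitin. Its core particle is a barrel of stacked rings, in which alpha subunits form the gate and beta subunits hold the cutting sites. A regulatory particle of a base, with a ring of ATPases that unfold the substrate, and a lid, which removes the ubiquitin chain, caps the barrel. In cells exposed to interferon, 3 inducible beta subunits replace the constitutive catalytic ones to form the immunoproteasome, which makes peptides for antigen presentation. In liver the ubiquitin and proteasome system also takes part in iron and oxygen sensing, since iron regulatory proteins and hypoxia-inducible factors are degraded through it.

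The deposited table holds log2 values, as its range shows, with array medians from 7.1195 to 7.1205. All 46 members lay above the median of every array, against 66.1% of all genes. Differences between arrays are compressed in this table: the within-group SD of the members ran from 0.745 to 3040 millionths of a log2 unit, with a median of 12.2, beside 8.72 for all genes. Values are therefore given below as the deviation of an array from the 8-array mean of that probe set, in millionths of a log2 unit. They are not fold changes, and sizes are comparable between genes only as the standardised difference, which is the difference, iron-deficient minus control, in units of the SD within the groups. With 4 arrays a group, precision is limited. The hepatocyte markers Alb, Apoa1, Apob, Ttr and Cps1 lay above the array median on all 8 arrays.

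No proteasome gene passed the test for a diet difference. In limma, 0 of 46 members had an adjusted p under 0.05, where 0.0422% of all genes did, and the smallest limma adjusted p among them was 0.231. By unadjusted p under 0.05, 5 members were higher (10.9% of them) and 1 was lower (2.17%), beside 5.74% of all genes higher and 7.50% lower. The groups did not overlap for 1 member that was higher and 1 that was lower, or 2.17% in each direction, beside 3.42% of all genes higher and 4.40% lower. Of the 46 differences, 28 were above 0 (60.9%, beside 47% of all genes), and the median standardised difference was 0.159, beside -0.0727 over all genes. For comparison, the largest standardised difference of a member was 2.83 in size and the smallest of any probe set past the adjusted threshold was 7.96. Quantile normalization of the table gave 8 of the 46 members past the adjusted threshold in limma, where 1093 of all 31042 probe sets were called. It left 6 members with no spread within a group. With Hamp, which encodes the iron hormone hepcidin, kept out of that step, 0 passed in limma. Single arrays moved the counts: higher members without overlap numbered 5 without iron-deficient replicate 1, 2 without iron-deficient replicate 4, and 4 without control replicate 1 or control replicate 4, and lower ones 2 without iron-deficient replicate 3. Over all genes the share without overlap also moved, to between 4.33% and 5.99% higher and between 5.51% and 7.68% lower with 1 array left out. By unadjusted p, 3 were higher without iron-deficient replicate 2, and 2 without iron-deficient replicate 3, control replicate 2 or control replicate 3. In the lower direction 2 passed without control replicate 1, 1 without iron-deficient replicate 2, and 0 without any other single array. The share of all genes by unadjusted p was between 4.26% and 5.95% higher and between 5.49% and 8.06% lower with 1 array left out. The median standardised difference was below 0, at -0.122, without iron-deficient replicate 2.

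**Figure D1:**
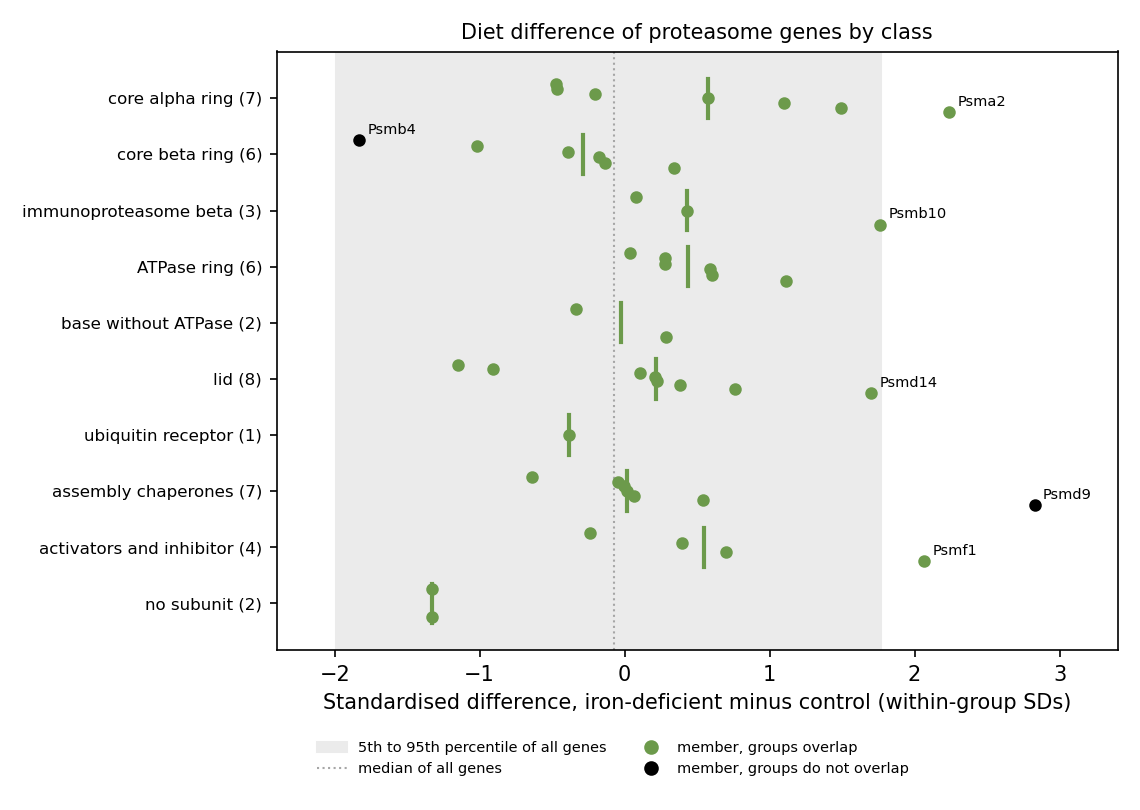
Standardised difference of each of the 46 genes (x axis, within-group SDs, iron-deficient minus control) by class (y axis, number of genes in brackets), with vertical bars at the class medians and shading from the 5th to the 95th percentile of all genes, -1.99 to 1.77. Most members lie inside the shading, Psmd9, Psma2 and Psmf1 lie above it, and Psmd9 and Psmb4 are the members whose groups did not overlap.

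The alpha subunits form the outer rings of the core particle and control entry into it. Of 7, 4 were above 0 and 3 below, with standardised differences from -0.47 to 2.24 and a median of 0.575. The median was 1.54 without iron-deficient replicate 1, 0.374 without iron-deficient replicate 2, 0.113 without iron-deficient replicate 3 and 0.368 without control replicate 3, and under quantile normalization with Hamp kept out 2 of 7 were above 0, 3 below and 2 at exactly 0. The member with the smallest p was Psma2. Its values were -31.7, 114, 118 and 71.0 in iron-deficient livers, against -13.8, -105, -115 and -37.6 in control livers. Of the 4 iron-deficient livers, 3 lay above every control liver, and iron-deficient replicate 1 lay within the control range. The Psma2 difference was 136 ± 41.0 millionths (SE, n = 4 per group), with a limma adjusted p of 0.315, and its sign turned to -761 under quantile normalization with Hamp kept out. Adjusted p for the 7 alpha subunits ran from 0.315 to 0.952 in limma. Psma1 and Psma4 followed with standardised differences of 1.49 and 1.10, Psma5 stood at 0.575, and Psma3, Psma6 and Psma7 lay at -0.203, -0.463 and -0.470.

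The constitutive beta subunits line the cutting chamber. Of 6, 5 were below 0, with a median standardised difference of -0.285, while all 6 were above 0 under quantile normalization, and with Hamp kept out of it 4 were at exactly 0, 1 above and 1 below. Median centring, which shifts all genes of an array alike, put 44 of the 46 members and all 6 of these above 0. With 1 array left out, 0 to 3 of the 6 were above 0. Psmb4, a beta subunit without a cutting site, was the member of the whole family with the lowest standardised difference, -1.83. It read -4.72, -0.264, -0.934 and -2.27 in iron-deficient livers, against 0.106, 1.22, 1.19 and 5.69 in control livers. All 4 iron-deficient livers lay below all 4 control livers, and iron-deficient replicate 2 and control replicate 1 were the nearest to each other. The difference of Psmb4 was -4.10 ± 1.66 millionths (SE, n = 4 per group, limma adjusted p = 0.428), and its sign turned under quantile normalization (1500 millionths, limma adjusted p = 1.4e-11). After that step Psmb4 had no spread left within a group, so the second p measures no variation between livers. The 250 bases before its RefSeq start, chr2:185134562-185134811 on the minus strand of GRCr8, are shown because the groups did not overlap for it, with a match to CCGGAA, a core bound by ETS factors, in capitals on the other strand as TTCCGG.
Psmb4: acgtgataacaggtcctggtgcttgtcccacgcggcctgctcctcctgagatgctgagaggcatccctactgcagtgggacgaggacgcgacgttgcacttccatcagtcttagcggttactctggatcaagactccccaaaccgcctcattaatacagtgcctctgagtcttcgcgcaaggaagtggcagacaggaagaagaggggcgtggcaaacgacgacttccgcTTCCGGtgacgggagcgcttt

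Psmb5 carries the chymotrypsin-like site and Psmb7 the trypsin-like site of the constitutive core. Psmb5 read -1.32, 1.87, 1.95 and -3.46 in iron-deficient livers, against 1.99, -3.81, 0.407 and 2.39 in control livers. The groups overlapped over most of their range, and the difference was -0.485 ± 1.97 millionths (limma adjusted p = 0.961), against 1230 under quantile normalization (limma adjusted p = 4.97e-11). Psmb7 read -3.26, 1.47, -0.424 and -1.91 in iron-deficient livers, against 2.54, -1.82, 1.05 and 2.38 in control livers. Here 3 of 4 iron-deficient livers were below the control mean, with a difference of -2.07 ± 1.53 millionths (limma adjusted p = 0.678), against 3300 under quantile normalization (limma adjusted p = 1.38e-13). Psmb5 and Psmb7 also had no spread left within a group after quantile normalization, so their p-values from that step measure no variation between livers. The other constitutive beta subunits Psmb1, Psmb2 and Psmb3 had standardised differences from -0.393 to 0.341. The upstream 250 bases of Psmb5, chr15:32047380-32047629 on the minus strand of GRCr8, are shown for the antioxidant response element core TGACNNNGC, in capitals, which NRF factors bind and through which proteasome genes are known to be induced together.
Psmb5: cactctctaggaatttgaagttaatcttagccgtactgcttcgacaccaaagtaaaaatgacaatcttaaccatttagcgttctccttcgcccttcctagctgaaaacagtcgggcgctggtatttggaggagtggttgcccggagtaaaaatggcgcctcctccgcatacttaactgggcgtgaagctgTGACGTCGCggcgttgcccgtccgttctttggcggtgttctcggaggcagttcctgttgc

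All 3 immunoproteasome beta subunits were above 0, with standardised differences of 0.432 for Psmb8, 0.0803 for Psmb9 and 1.76 for Psmb10, while 1 to 3 of them were above 0 with 1 array left out, 2 under quantile normalization and 1 with Hamp kept out of that step. Their within-group SDs were 168, 342 and 13.1 millionths. Psmb8, which replaces Psmb5, read -151, 15.1, 244 and 37.0 in iron-deficient livers, against -8.18, 153, -269 and -21.5 in control livers. Iron-deficient replicate 3 was the highest array and control replicate 3 the lowest, and the groups overlapped. Its difference was 72.7 ± 114 millionths, with a 95% interval from -200 to 345 (limma adjusted p = 0.873).

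Psmb9, which replaces Psmb6, read -244, -9.13, 519 and -211 in iron-deficient livers, against -34.1, 320, -461 and 121 in control livers. The same arrays were the extremes, iron-deficient replicate 3 and control replicate 3, and the difference was 27.4 ± 231 millionths, with a 95% interval from -526 to 581 (limma adjusted p = 0.984). Psmb10, which replaces Psmb7, read 8.67, 4.03, 29.2 and 4.34 in iron-deficient livers, against -19.9, -6.28, -25.9 and 5.81 in control livers. Control replicate 4 lay among the iron-deficient livers and the other 3 control livers below them. The difference for Psmb10 was 23.1 ± 8.88 millionths (limma adjusted p = 0.407), against -373 under quantile normalization and -700 with Hamp kept out. Whether Psmb10 differed from Psmb8 and Psmb9 in its response to diet was not tested.

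**Figure D2:**
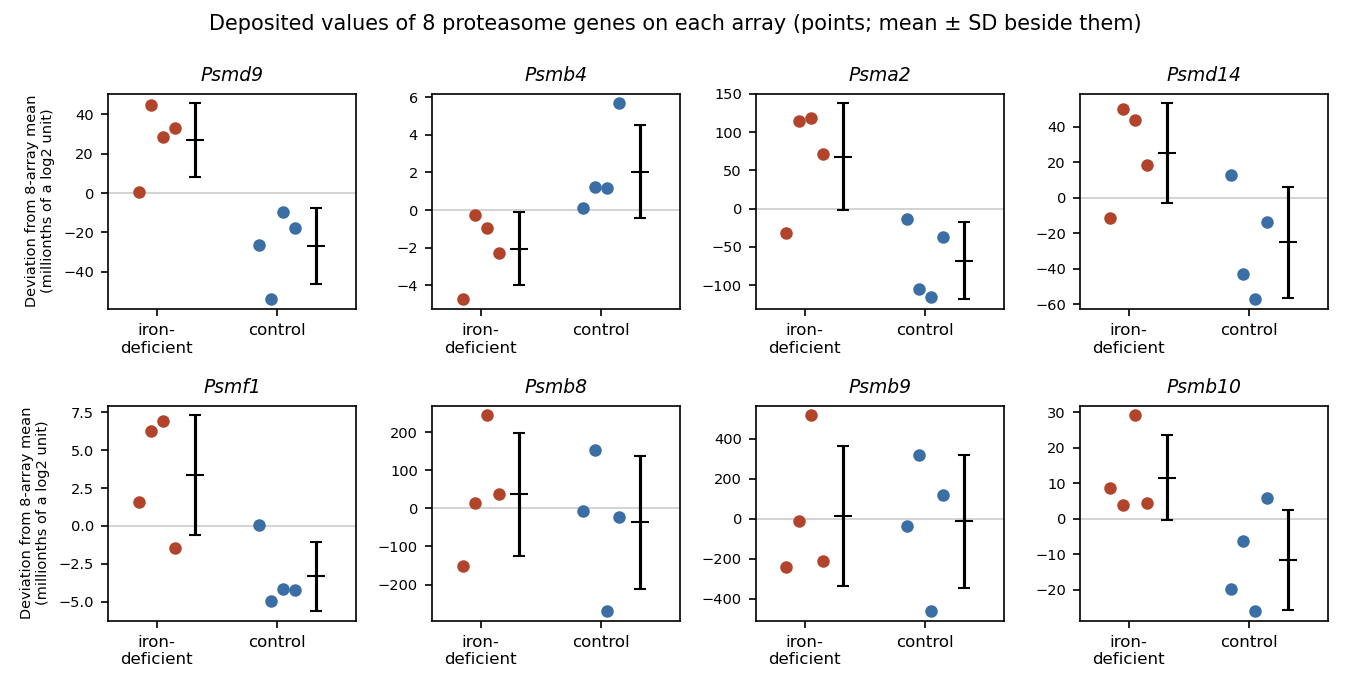
Deviation of each array from the 8-array mean (y axis, millionths of a log2 unit, own scale in each panel) for 8 proteasome genes in iron-deficient and control livers (points), with the mean and SD of each group beside them (n = 4 each). The groups separate for Psmd9 and Psmb4, while Psmb8 and Psmb9 spread over both groups with iron-deficient replicate 3 highest and control replicate 3 lowest.

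Immune cells carry more immunoproteasome than hepatocytes, so markers of the cells a liver sample can hold were read beside these genes. Lymphocyte markers were above 0 for 6 of 13 genes, with a median standardised difference of -0.145. Most of them, Cd3e, Cd3d, Cd3g, Cd2, Cd8a, Cd79b, Nkg7, Ncr1 and Gzmb, lay below the array median on all 8 arrays. Ptprc, Lck, Prf1 and Cd4 lay above it on all 8. Kupffer cell and macrophage markers were above 0 for 11 of 11, with a median of 0.594, and their per-array medians ran from -0.984 to 1.03 within-group SDs in iron-deficient livers and from -1.18 to 0.552 in control livers. Dendritic cell markers were above 0 for 2 of 3. Endothelial and stellate markers were each above 0 for 6 of 7, with medians of 3.66 and 2.63, and 5 endothelial and 3 stellate markers were higher without overlap between the groups, as were 2 Kupffer cell and macrophage markers, Lyz2 and Mrc1. Hepatocyte markers were above 0 for 2 of 7, with a median of -0.241, and Asgr1 was lower without overlap. Over all genes, 3.42% were higher and 4.40% lower without overlap. None of these markers passed the adjusted threshold in limma. An unadjusted p under 0.05 in limma was reached by 5 of 7 endothelial, 5 of 7 stellate and 2 of 11 Kupffer cell and macrophage markers. All of these were above 0, and by that rule 5.74% of all genes were higher and 7.50% lower. The part of the cell type markers in the values of the proteasome genes was not tested. In whole liver, fewer cells of a type and less RNA per cell cannot be told apart.

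The 6 ATPases of the base form the motor that threads proteins into the core, and all 6 were above 0. With 1 array left out 3 to 6 of them were above 0. Under quantile normalization with Hamp kept out 4 were, and with the mean of all probe sets 5 were. As deposited, none of the 6 had an unadjusted p under 0.05 in limma. Their standardised differences ran from 0.0387 for Psmc3 to 1.11 for Psmc6, with a median of 0.435. Psmc6 read -84.5, 139, 6.82 and 160 in iron-deficient livers, against 42.5, -55.5, -52.8 and -155 in control livers. Both ranges overlapped widely, and the difference was 111 ± 67.3 millionths (limma adjusted p = 0.601). For Psmc1, Psmc2, Psmc4 and Psmc5 the standardised differences lay between 0.278 and 0.5995.

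Psmd1 and Psmd2 are the large scaffold subunits of the base, where the receptors for ubiquitin and ubiquitin-like domains attach. Psmd1 had a standardised difference of 0.282. Psmd2 read -6.37, 9.71, 2.16 and -14.5 in iron-deficient livers, against -14.2, -8.06, 15.5 and 15.8 in control livers. The groups covered almost the same range, with a difference of -4.50 ± 9.03 millionths (limma adjusted p = 0.908). Psmd4, which binds ubiquitin chains, read -12.5, -1.83, 7.39 and -0.984 in iron-deficient livers, against -7.65, -8.89, 14.0 and 10.4 in control livers, and the difference was -3.94 ± 6.93 millionths (limma adjusted p = 0.890).

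In the lid, 6 of 8 subunits were above 0, with a median standardised difference of 0.219. Without iron-deficient replicate 2 the count was 3 of 8 and the median -0.246, without iron-deficient replicate 1 the median was 0.622 and without control replicate 3 it was 0.658, without control replicates 1 and 2 in turn it was 0.0975 and 0.0731, and under quantile normalization with Hamp kept out the count was 2 of 8 and the median -0.193. Psmd14, the metalloprotease that removes the ubiquitin chain as the substrate enters, had the smallest p. It read -11.6, 50.02, 44.2 and 18.3 in iron-deficient livers, against 12.8, -42.9, -57.0 and -13.9 in control livers. Of the 4 iron-deficient livers, 3 lay above every control liver, and replicate 1 of the iron-deficient group lay among the controls. The Psmd14 difference was 50.5 ± 20.1 millionths (limma adjusted p = 0.418), and its other 2 probe sets had standardised differences of 1.21 and 1.79 beside 1.70. Psmd3 and Psmd7 were below 0, at standardised differences of -0.910 and -1.15. The remaining lid subunits, Psmd6, Psmd8, Psmd11, Psmd12 and Psmd13, lay between 0.106 and 0.763.

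Assembly chaperones bring subunits together and leave before the particle is complete. Among the 7, 4 were above 0 and the median standardised difference was 0.0196, which ran from -0.144 to 0.457 with 1 array left out. Psmd9, a chaperone of the ATPase ring, had the largest standardised difference of the whole family, 2.83. It read 0.636, 45.0, 28.7 and 33.0 in iron-deficient livers, against -26.6, -53.7, -9.59 and -17.5 in control livers. All 4 iron-deficient livers lay above all 4 control livers, with iron-deficient replicate 1 the nearest to them. The difference was 53.7 ± 12.8 millionths (SE, n = 4 per group; limma adjusted p = 0.231), and the other probe set of Psmd9 differed by 9.48 ± 4.01 millionths (limma adjusted p = 0.447) with overlapping groups. Its sign turned under quantile normalization of the table, to -138, and to -414 with Hamp kept out of that step. The other base chaperones Psmd5 and Psmd10 stood at standardised differences of 0.0196 and -0.00476, and the alpha-ring chaperones Psmg1 to Psmg4 between -0.638 and 0.541.

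The 250 bases before the RefSeq start of Psmd9, chr12:39018265-39018514 on the minus strand of GRCr8, are shown because it had the largest standardised difference. Capitals mark matches to the antioxidant response element core TGACNNNGC on either strand, the first beginning at -124 and the second at -77 from the start.
Psmd9: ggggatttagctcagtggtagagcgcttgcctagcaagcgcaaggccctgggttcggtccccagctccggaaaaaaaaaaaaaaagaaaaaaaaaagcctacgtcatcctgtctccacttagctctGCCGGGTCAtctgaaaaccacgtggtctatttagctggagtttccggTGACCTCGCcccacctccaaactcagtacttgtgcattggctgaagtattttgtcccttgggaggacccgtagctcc

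Activators and inhibitors bind the ends of the core particle. Psmf1 encodes a protein first described as a proteasome inhibitor. It read 1.596, 6.28, 6.92 and -1.43 in iron-deficient livers, against 0.0262, -4.93, -4.18 and -4.26 in control livers. Of the 4 iron-deficient livers, 3 lay above every control liver, while replicate 4 lay below control replicate 1. The difference of Psmf1 was 6.68 ± 2.29 millionths (limma adjusted p = 0.360). The interferon-induced activator subunits Psme1 and Psme2 had standardised differences of -0.239 and 0.696, and Psme4, an activator that opens the gate without ATP, had 0.394. Of the genes that are no subunit, Psme3ip1 read -6.35, -8.53, 2.91 and -5.73 in iron-deficient livers, against 1.27, -0.0771, 16.3 and 0.216 in control livers, with a difference of -8.85 ± 4.54 millionths (limma adjusted p = 0.527). Psmc3ip, which acts in meiotic recombination, had a standardised difference of -1.33.

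Of the 46, 9 had 14 further probe sets between them. For 5 of the 9 all probe sets had the same sign, 4 higher (Psmc6, Psmd9, Psmd14 and Psme4) and 1 lower (Psmd7). For Psmb5, Psmc4, Psmd11 and Psme1 the probe sets disagreed in sign, and the dimmest probe sets of Psmb5, Psmd11 and Psme1 lay below the array median. None of the 14 separated the groups, where 3.42% of all genes did so higher and 4.40% lower.

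The low arrays of the proteasome genes were shared between members. On iron-deficient replicate 1 or control replicate 2, 26 of 46 members (56.5%) had their lowest value, where 24.2% of all genes did, and no member had its highest value there, where 19.4% of all genes did. All 6 constitutive beta subunits and 6 of 7 alpha subunits were lowest on one of these arrays, as were 5 of 6 ATPases, 4 of 8 lid subunits and 0 of 3 immunoproteasome subunits. The median over members was -0.894 and 0.726 within-group SDs on iron-deficient replicates 1 and 2, and 0.643 and -0.0961 on iron-deficient replicates 3 and 4. On control replicates 1 to 4 it was -0.196, -0.668, 0.388 and 0.222. The groups overlapped in this measure, with 1 low array in each. Over all genes the medians lay between -0.197 and 0.105. The 3' minus 5' difference of the actin probe sets is a sign of RNA quality. It read 1.4083 on iron-deficient replicate 1 and 1.40916 on control replicate 2, the highest of all arrays (range 1.4064 to 1.40916). The same difference of the Gapdh probe sets was lowest on iron-deficient replicate 1 (1.169587) and highest on control replicate 2 (1.169836). By group, the Gapdh difference ran from 1.169587 to 1.169671 in iron-deficient livers and from 1.169629 to 1.169836 in control livers. The actin difference ran from 1.4064 to 1.4083 and from 1.40722 to 1.40916, so both lay lower in iron-deficient livers with overlapping groups. The part of RNA quality in the shared movement or in the diet differences was not tested.

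**Figure D3:**
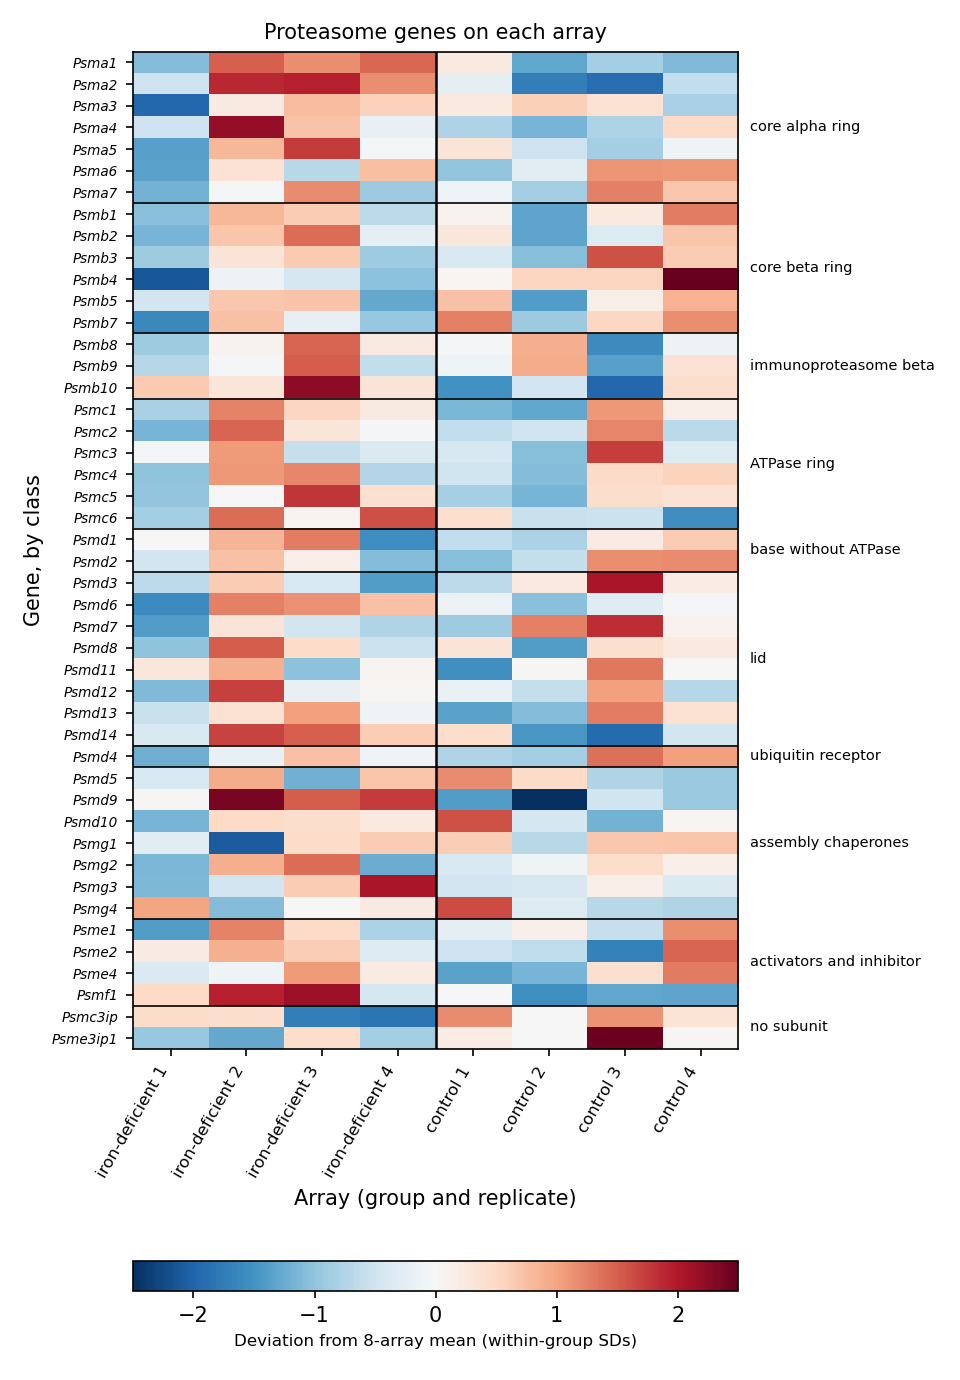
Deviation of every proteasome gene (rows, by class) on every array (columns) from its 8-array mean, in within-group SDs by the colour scale. Iron-deficient replicate 1 and control replicate 2 are low for most rows above the assembly chaperones, while the immunoproteasome rows are highest on iron-deficient replicate 3 and lowest on control replicate 3.

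To describe this shared movement apart from diet, group means were removed and each pair of genes was correlated over the 8 arrays. Each coefficient rests on the same 8 libraries and is given as a description. Among the 44 proteasome genes the median r over 946 pairs was 0.361, beside 0.0323 for pairs of a proteasome gene with any other gene, and 37.4% against 14.8% of pairs had r above 0.5. Within the constitutive beta subunits the median was 0.774 over 15 pairs, within the alpha subunits 0.443 over 21, within the ATPases 0.466 over 15 and within the lid 0.490 over 28. Assembly chaperones had 0.102 over 21 pairs. Between constitutive beta and alpha subunits it was 0.586 over 42 pairs. Part of this rests on 1 liver: without iron-deficient replicate 1 the median over members was 0.216, and without that array and control replicate 2 it was 0.169, beside 0.0350 with other genes. Under quantile normalization, where 6 members had no spread and 703 pairs were left, the median was 0.277 beside 0.227 with other genes, and 32% against 24.2% of pairs had r above 0.5. With Hamp kept out these were 0.236 beside 0.233, and 27.2% against 24.6%.

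The immunoproteasome subunits followed each other, with a median r of 0.821 over 3 pairs. With constitutive beta subunits their median was 0.162 over 18 pairs, with ATPases -0.152 over 18 and with lid subunits -0.0961 over 24. With the antigen presentation and interferon genes it was 0.563 over 63 pairs, where constitutive beta subunits had 0.0987 over 126. With cell type markers it was 0.383 for Kupffer cell and macrophage, 0.317 for hepatocyte, 0.286 for lymphocyte and 0.202 for dendritic cell markers. For endothelial and stellate markers it was -0.293 and -0.16. The median of the antigen presentation and interferon list over its 21 genes was highest on iron-deficient replicate 3 (0.714 within-group SDs) and lowest on control replicate 3 (-1.15), as for the immunoproteasome subunits (1.52 and -1.6). Kupffer cell and macrophage, lymphocyte and stellate markers were also lowest on control replicate 3 (-1.18, -0.931 and -1.42) but were highest on other arrays than iron-deficient replicate 3. None of these differences between classes and lists was tested.

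**Figure D4:**
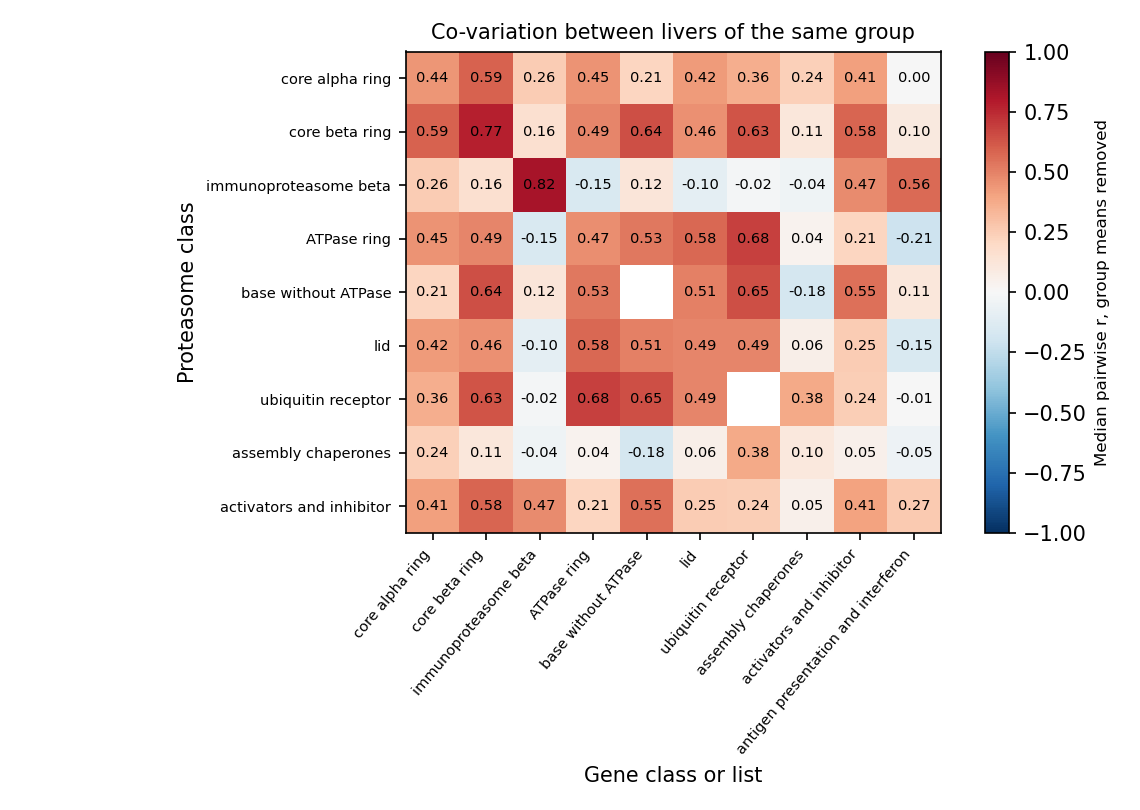
Median pairwise r between classes of proteasome genes (rows) and the same classes or the antigen presentation and interferon list (columns), over the 8 arrays with group means removed, printed in each cell and shown by colour. Constitutive core, base and lid classes share positive values, and the immunoproteasome row is highest with itself, the activators and the interferon list.

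Genes that control, feed or use the proteasome were read from lists of 78 genes, of which 67 were measured. None passed in limma. By unadjusted p under 0.05, 3 were higher and 5 lower (4.48% and 7.46%), close to the 5.74% and 7.50% of all genes, and 2 higher and 4 lower did not overlap between the groups (2.99% and 5.97%, beside 3.42% and 4.40% of all genes). Nfe2l1, the transcription factor known to raise proteasome subunit genes when the protease is short, was below 0. It read -14.1, -7.83, -11.3 and -2.08 in iron-deficient livers, against 6.30, 17.5, 9.23 and 2.22 in control livers. The groups did not overlap, and the difference was -17.6 ± 4.01 millionths (limma adjusted p = 0.215). Nfe2l1 was the 1 gene of 9 in its list of proteasome control and assembly without overlap, and 7 of the 9 were above 0.

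Among ubiquitin ligase genes of iron and oxygen sensing, listed together with Ireb2, 9 of 12 were above 0. Ireb2, which was above 0, encodes an iron regulatory protein and no ligase. Fbxl5 and Keap1 did not overlap between the groups. Keap1, the adaptor that marks NFE2L2 for degradation, read -8.39, -11.8, -27.0 and -12.8 in iron-deficient livers, against 12.9, 11.4, 35.6 and 0.101 in control livers, with a difference of -30.0 ± 8.16 millionths (limma adjusted p = 0.272). Fbxl5, the iron-binding adaptor that marks iron regulatory proteins for degradation, differed by -43.5 ± 8.42 millionths (limma adjusted p = 0.161). The differences of Nfe2l1, Keap1 and Fbxl5 were smaller in size than 50.4 millionths, the median difference of all genes under median centring. Of 21 antigen presentation and interferon genes 12 were above 0, with Stat2 at -120 ± 31.0 millionths (limma adjusted p = 0.254) lower, and Ifngr1 and Jak2 at 1.75 ± 0.872 and 4.41 ± 1.45 millionths higher (limma adjusted p = 0.517 and 0.343), without overlap. Vcp and its cofactors, which extract ubiquitinated proteins for the proteasome, were below 0 for 5 of 7, and E1 enzymes, which activate ubiquitin and related proteins, were above 0 for 4 of 5.

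Upstream sequences from RefSeq (GRCr8, 250 bases before the start) were available for 42 of the 46 members and searched on both strands for 7 motifs. The antioxidant response element core TGACNNNGC was present in 6 of 42 windows (14.3%), beside 10.1% of all 33469 windows and 12.3% of the windows of genes on the array. The ETS core CCGGAA was present in 19 of 42 (45.2%), among them 5 of 6 ATPases, beside 12.6% and 21.1%. CCAAT was present in 21 (50%), beside 34.0% and 35.1%, and the hypoxia response element core ACGTG in 9 (21.4%), beside 16.6% and 21.0%. The gamma-activated site core TTCNNNGAA was found in 4 (9.52%, beside 7.67% and 6.13%) and TGACGTCA in 1 (2.38%, beside 1.59% and 2.64%). Each motif was counted on its own, and matches of different motifs may overlap.

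The interferon-stimulated response element core, which is GAAA, any 2 bases and GAAA again, was present in 5 of 42 (11.9%), beside 3.41% of all windows and 2.65% of those on the array. The 5 were Psma4, Psmb3, Psmb10, Psmd7 and Psme2, so 3 of them belong to the constitutive core or the lid, and 1 of 3 immunoproteasome beta windows held a match. The windows of Psmb10 and the activator subunit Psme2 are shown, with the motif in capitals, as the interferon-induced genes among the 5. Psmb10 lies at chr19:50743293-50743542 and Psme2 at chr15:33052752-33053001, both on the minus strand of GRCr8.
Psmb10: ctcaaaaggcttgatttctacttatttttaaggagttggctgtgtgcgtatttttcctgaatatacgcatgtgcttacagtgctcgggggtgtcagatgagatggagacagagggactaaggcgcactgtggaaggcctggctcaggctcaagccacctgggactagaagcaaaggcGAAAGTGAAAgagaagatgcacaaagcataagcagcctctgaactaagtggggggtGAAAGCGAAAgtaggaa
Psme2: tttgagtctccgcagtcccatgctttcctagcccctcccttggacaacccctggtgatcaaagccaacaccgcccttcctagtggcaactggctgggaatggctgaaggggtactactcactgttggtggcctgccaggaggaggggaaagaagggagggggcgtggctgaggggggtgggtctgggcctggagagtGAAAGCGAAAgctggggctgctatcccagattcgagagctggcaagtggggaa
Psmb10 has 2 matches, at -73 and -17 from the start, and Psme2 has 1 at -53. A match is a description of letters in this window and no evidence of binding in these livers.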

How the data were processed

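Liver RNA was hybridised to Affymetrix rat arrays from biotinylated cRNA, per the labels' protocols. The authors deposited log2 values for 31099 probe sets; the unit was read from the values, and summarisation, normalization and build are not given in the sources used here. Without 57 control probe sets, 31042 remained, of which 20826 had 1 symbol in the platform annotation, 436 several and 9780 none.

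All 31042 entered 1 limma 3.58.1 fit (R 4.3.3; lmFit, then eBayes; no block), iron-deficient minus control, with Benjamini-Hochberg adjustment and a threshold of 0.05. The fit was tested on simulated data with independent noise and known shifts. Recovery was required only at the largest shift, which was above the standardised difference of every member. Values on all arrays are printed for the immunoproteasome subunits with Psmb5 and Psmb7, and in each class for up to 4 members without overlap, or otherwise the 1 with the smallest p. Pathway genes were named where groups did not overlap. Psmb6, ubiquitin genes and 4 upstream windows were not analysed here. Members, lists and motifs were chosen with earlier results of these data known. Alternatives were quantile normalization with and without Hamp, median centring, a filter on dim probe sets, a replicate block, another variance model, the mean of all probe sets and each array left out.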

Additional observations from a re-analysis of the deposited data

Results flagged for a closer look

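In 7 of 92 groups of 4 arrays (7.61%, beside 5.29% over all genes) 1 array stood apart from the other 3, by a gap larger than Dixon's critical share of the group's range. Chance gives about 5%. The lowest array was iron-deficient replicate 1 for Psma1 (0.875 of the range) and Psmd10 (0.847), and control replicate 2 for Psmd8 (0.918) and Psmg1 (0.948). The highest was control replicate 3 for Psmc2 (0.907) and Psme3ip1 (0.918), and control replicate 1 for Psmf1 (0.849).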

How the results depend on the processing

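After quantile normalization 8 of the 46 members passed the adjusted threshold in limma, where 1093 of all 31042 probe sets were called. All 8 were higher (Psma6, Psma7, Psmb1, Psmb4, Psmb5, Psmb7, Psmc1 and Psme1). With Hamp kept out of that step, or under any of the other 13 alternatives, 0 members passed in limma. Near the members, probe sets next to each other in rank lay a median of 460 millionths apart, more than the within-group SD of 44 of the 46. Quantile normalization left 6 members with no spread within a group, among them Psmb4, Psmb5 and Psmb7. For such members a p from that step measures no variation between livers. The part of the rank spacing in the calls was not tested. Members past an unadjusted p of 0.05 in limma, 5 higher and 1 lower as deposited, numbered 14 higher and 0 lower under quantile normalization (15.1% and 5.36% of all genes), 0 and 4 with Hamp kept out (3.4% and 8.18%), and 0 and 0 under median centring (1.36% and 0.802%). The lower count was 0 with dim probe sets left out, 0 with trend and robust variance and 0 with the mean of all probe sets (8.21%, 6.89% and 7.29% of all genes). With the replicate block, 1 was higher and 2 lower (4.91% and 6.17% of all genes). Same-numbered arrays of the groups did not deviate together (r from -0.0946 to 0.0283), and only iron-deficient replicate 2 correlated best with its own number, so the numbers were not taken as pairs. Leaving out 1 array gave 2 to 7 higher and 0 to 2 lower (4.26% to 5.95% and 5.49% to 8.06% of all genes). Members without overlap numbered 9 higher and 0 lower under quantile normalization (7.29% and 1.39% of all genes), 0 and 2 with Hamp kept out (1.1% and 2.09%), and 0 and 0 under median centring (0.528% and 0.197%). With 1 array left out they numbered 1 to 5 higher and 1 to 2 lower (4.33% to 5.99% and 5.51% to 7.68% of all genes). The median standardised difference, 0.159 as deposited, was 0.746 under quantile normalization, 0 with Hamp kept out, where 6 members differed by exactly 0, and -0.122 to 0.486 with 1 array left out. The median pairwise correlation, whose alternatives were chosen after seeing the data, was 0.236 under quantile normalization with Hamp kept out, 0.169 without iron-deficient replicate 1 and control replicate 2, and 0.216 to 0.441 with 1 array left out.

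Of 14 named members under 15 settings each, 178 of 210 differences kept their sign, 29 turned and 3 (Psmb4, Psmb5 and Psmb7 under quantile normalization with Hamp kept out) were 0. In millionths of a log2 unit, quantile normalization turned Psmb4 (1500), Psmb5 (1230), Psmb7 (3300), Psmb10 (-373), Psmd2 (571), Psmd4 (735), Psmd9 (-138) and Psme3ip1 (73.6). With Hamp kept out it turned Psma2 (-761), Psmb9 (-94.2), Psmb10 (-700), Psmc6 (-126), Psmd4 (297) and Psmd9 (-414). Median centring shifts all probe sets of an array by 1 constant, which puts the median difference of all genes at 50.4, against -0.231 as deposited, and turned Psmb4 (46.5), Psmb5 (50.1), Psmb7 (48.5), Psmd2 (46.1), Psmd4 (46.6) and Psme3ip1 (41.7). The mean of all probe sets turned Psmb5 (2.07). With 1 array left out the difference of Psmb5 ran from -1.84 to 0.588, of Psmb8 from -4.79 to 136, of Psmb9 from -141 to 139, of Psmd2 from -9.99 to 0.0175 and of Psmd4 from -7.56 to 0.0641. The cause of these changes was not tested.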
